A study of Mus musculus with 8 samples.

Results

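A set of 10 genes that mature beta cells normally keep silent or very low was followed through RNA profiles of 2 sorted beta cell populations. They are Ldha, Slc16a1, Acot7, Nfib, Zfp36l1, Oat, Lmo4, Smad3, Mgst1 and Igfbp4. They were taken by name as 10 of the 23366 genes in the expression table, and 9 of them had enough counts to be tested. Smad3 did not. By the labels, the cells were primary beta cells of pancreas from NOD mice, inbred animals prone to autoimmune diabetes, that were 8 to 10 weeks old. All libraries share that strain and age, and the labels name no treatment and no allele beyond the strain. Beta cells were sorted into a top and a bottom population, with 4 libraries each from about 1000 cells per library. Libraries top 1, top 2, bottom 1 and bottom 2 formed batch 1 of the labels, and the other 4 formed batch 2. The labels do not say whether the libraries of a population came from different animals or pools of animals, so the p-values below measure only the spread between these libraries, part of which may be technical. Nor do the labels say by which marker or gate the populations were sorted.

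Beta cells release insulin when glucose is oxidised in their mitochondria. Genes called disallowed are widely expressed in other tissues but are repressed in mature beta cells, where their products would disturb this coupling. The best known pair is Ldha, the lactate dehydrogenase subunit that favours making lactate from pyruvate, and Slc16a1, the plasma membrane carrier of lactate and pyruvate also called MCT1. Without them, pyruvate from glycolysis goes to the mitochondria, and pyruvate from the blood does not trigger insulin release. The other genes of the set encode enzymes (Acot7, Oat, Mgst1), regulators of transcription or of mRNA stability (Nfib, Zfp36l1, Lmo4, Smad3) and a secreted binding protein (Igfbp4).

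Promoter sequences are shown for Ldha and Slc16a1, the 2 genes of the set whose first-listed promoter held the hypoxia and E-box motifs below, and for Acot7 and Zfp36l1, which were called different between the populations and held neither. Each is the 250 bases before the first-listed RefSeq transcription start, in build GRCm38.p6, written 5′ to 3′ on the strand of the gene. These positions belong to that build and not to mm9, the build of the deposited counts. Capitals mark ACGTG, a form of the core to which hypoxia-inducible factors bind, or its reverse complement CACGT. Other forms of this core were not searched. Where both overlap, they form CACGTG, the E-box to which Myc and related factors bind.
Ldha, chr7:46845554-46845803, forward strand: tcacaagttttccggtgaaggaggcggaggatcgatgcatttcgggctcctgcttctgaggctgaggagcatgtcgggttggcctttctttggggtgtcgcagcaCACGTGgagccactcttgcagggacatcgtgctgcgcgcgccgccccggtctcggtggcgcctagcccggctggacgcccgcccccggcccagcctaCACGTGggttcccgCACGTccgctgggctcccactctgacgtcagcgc
Slc16a1, chr3:104638414-104638663, forward strand: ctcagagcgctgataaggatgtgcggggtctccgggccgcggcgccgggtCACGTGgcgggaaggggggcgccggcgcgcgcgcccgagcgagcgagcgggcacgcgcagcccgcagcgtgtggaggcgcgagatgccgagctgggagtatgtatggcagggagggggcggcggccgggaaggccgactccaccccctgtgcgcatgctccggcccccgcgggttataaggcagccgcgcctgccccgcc
Acot7, chr4:152185358-152185607, forward strand: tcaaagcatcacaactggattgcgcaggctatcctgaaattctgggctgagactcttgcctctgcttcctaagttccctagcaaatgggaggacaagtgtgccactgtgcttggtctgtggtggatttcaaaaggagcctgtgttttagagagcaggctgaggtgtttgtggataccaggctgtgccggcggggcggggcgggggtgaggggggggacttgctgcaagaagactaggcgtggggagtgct
Zfp36l1, chr12:80113014-80113263, reverse strand: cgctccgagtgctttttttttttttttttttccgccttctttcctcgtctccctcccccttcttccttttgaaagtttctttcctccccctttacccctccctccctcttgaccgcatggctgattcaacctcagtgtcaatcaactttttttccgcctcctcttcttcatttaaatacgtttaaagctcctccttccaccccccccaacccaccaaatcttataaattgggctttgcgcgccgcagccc
Over both strands, the Ldha promoter held 5 ACGTG matches, 4 of them inside its 2 CACGTG boxes, and the Slc16a1 promoter held 2, both inside its 1 box. Of the 9 genes with a promoter in the RefSeq table, 2 held ACGTG at the first-listed start and the same 2 held CACGTG. Lmo4 held ACGTG at its other 2 starts, whose windows overlap and share the same single match. Among the first-listed promoters of 27025 genes, of the same length, 16.6% held ACGTG and 6.05% held CACGTG. The short site TTGGC, read on both strands, to which nuclear factor I proteins such as Nfib bind, was in 4 of the 9 and in 41.9% of all first-listed promoters. The full palindromic nuclear factor I site, in which TTGGC and its reverse complement flank a short spacer, was in 0 of the 9 and in 0.0407% of all. Nfib was not in the promoter table. These matches describe letters in the sequences and are not evidence of binding.

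Library totals ran from 6657639 to 11262368 estimated counts, and 12853 to 14381 genes were detected per library. Insulin transcripts made up 26.6% to 40.1% of the counts in top libraries and 2.75% to 7.16% in bottom libraries. The summed level of 10 beta cell markers was 344012 to 505634 CPM in top and 38729 to 81375 CPM in bottom. Ins1 and Ins2 made up most of this sum in every library, for example 81054 and 328169 CPM in top 1. Of the 10 markers 9 were tested, and 3 fell by the edgeR test described below, beside 0.444% of all tested genes called in either direction. At an unadjusted edgeR p under 0.05 it was 7, and DESeq2 called 7, beside 10.3% and 5.01% of all tested genes. Bottom libraries lay below top libraries without overlap for 7 of the 9, beside 458 of the 11721 tested genes. Pdx1 and Nkx6-1 overlapped and were low in both populations, with means of 4.84 and 7.23 CPM in top and 3.97 and 1.84 CPM in bottom. Mafa had 0 counts in all 8 libraries. Markers of delta cells (Sst, Hhex, Rbp4, Ghsr and Pyy) summed to 3275 to 6186 CPM in top and 36831 to 71033 CPM in bottom. All 4 tested delta markers were called higher, beside 0.282% of all tested genes. The PP cell hormone Ppy ran from 306 to 1691 CPM in top and from 8226 to 78759 CPM in bottom. Alpha cell markers summed to 65123 to 138111 CPM in top and 28988 to 141968 CPM in bottom. Most of the alpha sum was Gcg (62188 to 135233 CPM in top and 27942 to 137464 CPM in bottom). The alpha sum was above the beta sum in bottom 1 (51008 against 38729 CPM) and bottom 2 (141968 against 81375 CPM). It was below the beta sum in bottom 3 (28988 against 61837 CPM), in bottom 4 (43229 against 79058 CPM) and in every top library. In RNA from many cells at once, fewer cells of a type and less RNA per cell cannot be told apart.

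Acot7, Nfib and Zfp36l1 rose in the bottom population, and no gene of the set fell. The test was the edgeR quasi-likelihood test with batch as a covariate, Benjamini-Hochberg adjustment covered the 11721 tested genes, and calls were made below an adjusted p of 0.05. Fold changes below are log2 values of bottom over top with their standard error (SE), and levels are CPM (counts scaled to library size, after TMM scaling). The share of all tested genes called higher in bottom was 0.282%, and the share called in either direction was 0.444%. Against this stand 3 of the 9 tested genes of the set, all higher. The 4 bottom libraries lay above the 4 top libraries for 5 of the 9 (Slc16a1, Acot7, Nfib, Zfp36l1 and Mgst1), beside 3.31% of all tested genes. These 5 are also the genes that met the count minimum only through their bottom libraries, so no count or median over the 9 is used as support for a property of the set. Ldha, Oat, Lmo4 and Igfbp4 met the minimum in every library, and their log2 fold changes were 3.37, 1.74, -0.39 and 2.25, with none called. By DESeq2 6 of the 9 were called, beside 5.01% of all tested genes, and 7 of the 9 had an unadjusted edgeR p under 0.05, beside 10.3%. As a description, the median log2 fold change of the 9 was 4.28, the value of Mgst1, and that of all tested genes was 0.0033.

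**Figure D1:**
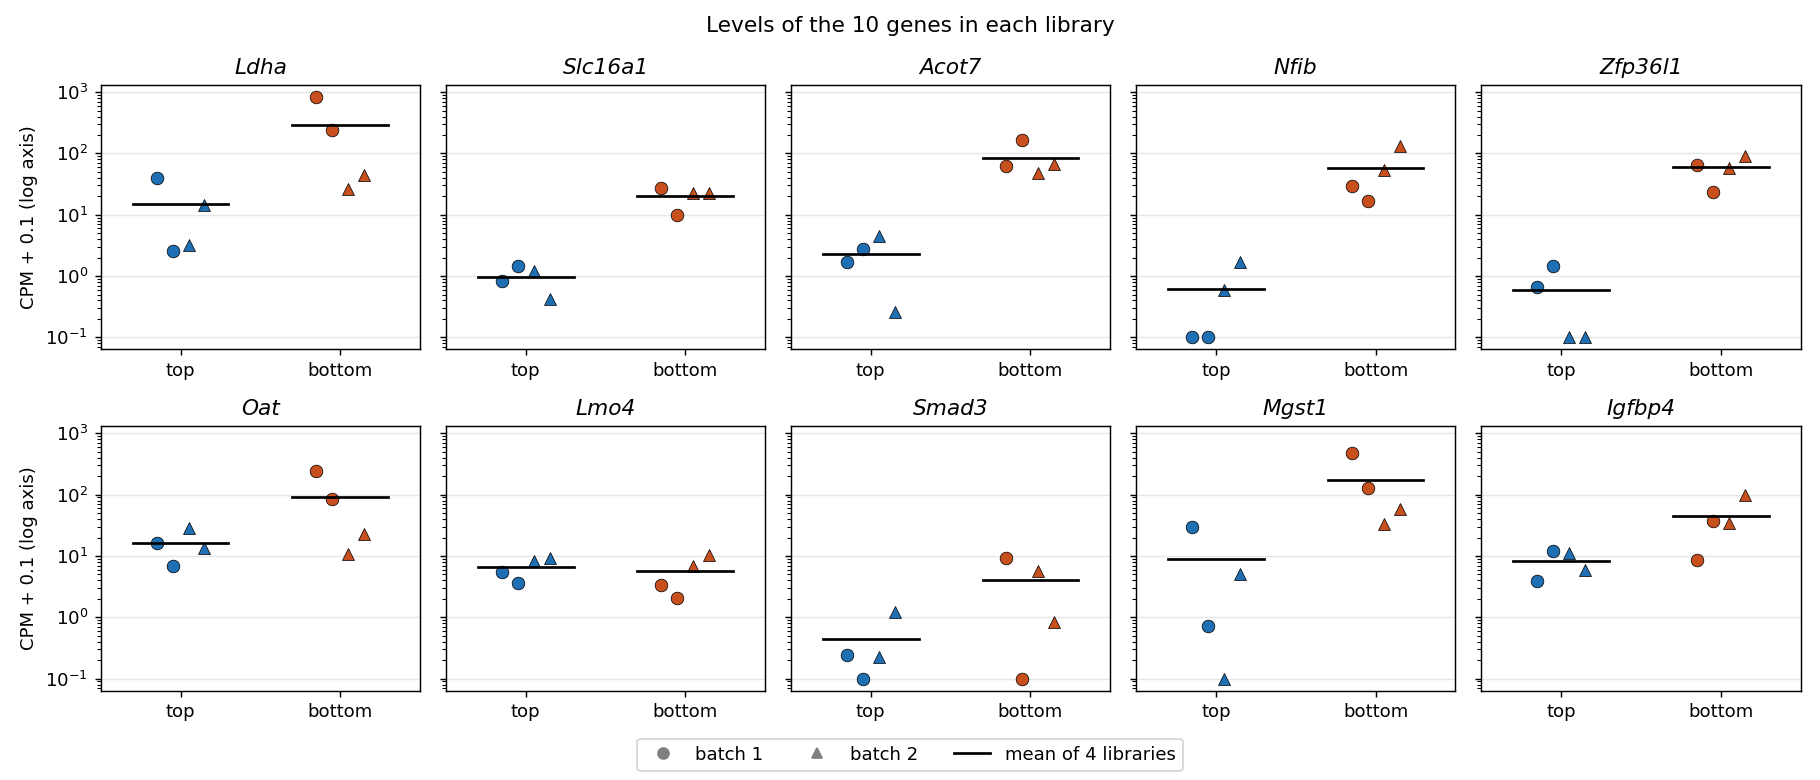
Level of each of the 10 genes in each of the 8 libraries, as CPM + 0.1 on a log axis, so that a library with 0 counts sits at 0.1. Circles are batch 1, triangles are batch 2, and bars are means of 4 libraries. Bottom libraries lie wholly above top libraries for Slc16a1, Acot7, Nfib, Zfp36l1 and Mgst1, and Ldha and Oat are highest in the batch 1 bottom libraries.

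The lactate carrier had few counts in top libraries. Slc16a1 stood at 0.719, 1.38, 1.11 and 0.318 CPM in top 1 to top 4, and at 26.9, 9.91, 22.3 and 22.7 CPM in bottom 1 to bottom 4. The populations did not overlap, and the lowest bottom library was bottom 2. Its mean was 0.883 ± 0.465 CPM in top and 20.5 ± 7.33 CPM in bottom (SD, n = 4), a ratio of 23.2, from 27 counts in all top libraries and 809 in all bottom libraries. The log2 fold change was 4.51 (SE 0.87), and its edgeR adjusted p of 0.0692 missed the threshold. Within batch 1 the ratio of means was 17.5 and within batch 2 it was 31.5.

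Ldha followed another pattern, with the largest values in 2 libraries of 1 batch. It stood at 39.0, 2.51, 3.09 and 14.4 CPM in top 1 to top 4, and at 834, 239, 26.7 and 43.7 CPM in bottom 1 to bottom 4. Bottom 1 and bottom 2, both of batch 1, were far above the rest, and top 1 lay above bottom 3, so the populations overlapped. The mean was 14.8 ± 17.1 CPM in top and 286 ± 378 CPM in bottom (SD, n = 4). Without bottom 1 the bottom mean was 103 CPM, and without top 1 the top mean was 6.68 CPM. The log2 fold change of 3.37 (SE 1.01) did not pass (edgeR adjusted p = 0.254). The ratio of means was 25.9 in batch 1 and 4.01 in batch 2. Ldha has processed pseudogenes of near-identical sequence in the mouse genome, so its count depends on how shared reads were divided.

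Among the enzymes, Acot7 rose. This acyl-CoA thioesterase cleaves long-chain fatty acyl-CoA to free fatty acid and CoA. Its levels were 1.58, 2.64, 4.45 and 0.159 CPM in top 1 to top 4, and 63.0, 164, 48.7 and 66.4 CPM in bottom 1 to bottom 4. Every bottom library was above every top library, with bottom 2 the highest. Means were 2.21 ± 1.81 CPM in top and 85.5 ± 52.9 CPM in bottom (SD, n = 4), a ratio of 38.8, and the log2 fold change was 5.17 (SE 0.85) with an edgeR adjusted p of 0.0452. The ratio of means was 53.8 in batch 1 and 25.0 in batch 2. Without top 3 the top mean was 1.46 CPM. The call was lost when 1 library was left out in 6 of 8 cases, with an edgeR adjusted p of 0.170 (top 1 out), 0.166 (top 2 out), 0.0596 (top 4 out), 0.104 (bottom 2 out), 0.121 (bottom 3 out) and 0.132 (bottom 4 out).

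Mgst1, a membrane-bound glutathione transferase that detoxifies reactive lipids, showed the same high pair of batch 1 bottom libraries as Ldha. It stood at 29.8, 0.628, 0 and 4.92 CPM in top 1 to top 4, and at 484, 129, 33.0 and 57.4 CPM in bottom 1 to bottom 4. The populations did not overlap, though top 1 at 29.8 CPM was close to bottom 3 at 33.0 CPM. Means were 8.83 ± 14.1 CPM in top and 176 ± 209 CPM in bottom (SD, n = 4), and the log2 fold change of 4.28 (SE 1.22) did not pass (edgeR adjusted p = 0.226). Without top 1 the top mean was 1.85 CPM, and without bottom 1 the bottom mean was 73.2 CPM. The ratio of means was 20.2 in batch 1 and 18.4 in batch 2.

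Oat, the mitochondrial ornithine aminotransferase that links ornithine to proline and glutamate, differed in direction between the batches. Its levels were 16.1, 6.78, 29.1 and 13.7 CPM in top 1 to top 4, and 241, 86.2, 10.7 and 22.9 CPM in bottom 1 to bottom 4. Bottom 1 and bottom 2 were high, and bottom 3 and bottom 4 lay within the range of the top libraries. The batch 1 means had a ratio of 14.3, whereas in batch 2 the means were 21.4 CPM in top and 16.8 CPM in bottom, a ratio of 0.787. Over all libraries the means were 16.4 ± 9.32 and 90.1 ± 106 CPM (SD, n = 4), and without bottom 1 the bottom mean was 39.9 CPM. The log2 fold change was 1.74 (SE 1.03) and did not pass (edgeR adjusted p = 0.645). In batch 2 alone it was -0.33.

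Of the regulators, 2 rose. Nfib is a transcription factor of the nuclear factor I family that acts in the development of lung, brain and hair follicle stem cells. It stood at 0, 0, 0.495 and 1.59 CPM in top 1 to top 4, and at 29.5, 16.5, 52.9 and 132 CPM in bottom 1 to bottom 4. The populations did not overlap, and both batch 2 bottom libraries were above both batch 1 bottom libraries. In all, 14 counts came from top libraries and 2374 from bottom libraries. The means were 0.521 ± 0.749 and 57.7 ± 51.8 CPM (SD, n = 4), a ratio of 111, and the log2 fold change was 7.31 (SE 0.94, edgeR adjusted p = 0.0162). In batch 1 the top libraries held 0 counts against 447 in bottom, which is at least 112-fold higher against a floor of 3 counts over both libraries, and in batch 2 the ratio of means was 88.8. Floors and counts of 0 cover counting error only, because amplified reads are not independent molecules. Without top 4 the top mean was 0.165 CPM, and without bottom 4 the bottom mean was 33.0 CPM. The call was lost without top 1 (edgeR adjusted p = 0.0612), top 2 (0.0794), top 3 (0.0561) or bottom 4 (0.123), and in a fit with no batch term (0.0640).

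Zfp36l1 encodes a protein of the tristetraprolin family that binds AU-rich elements of mRNA and speeds their decay. It stood at 0.575, 1.38, 0 and 0 CPM in top 1 to top 4, and at 65.2, 23.3, 58.7 and 92.0 CPM in bottom 1 to bottom 4. Here too the populations did not overlap, with bottom 2 the lowest bottom library, as for Slc16a1. Top libraries held 15 counts and bottom libraries 2396. The means were 0.489 ± 0.654 and 59.8 ± 28.3 CPM (SD, n = 4), a ratio of 122, and the log2 fold change was 7.24 (SE 1.21, edgeR adjusted p = 0.0462). The ratio of means was 45.2 in batch 1. In batch 2 the top libraries held 0 counts against 1550 in bottom, at least 366-fold higher against the same floor of 3 counts. Without top 2 the top mean was 0.192 CPM. The call was kept only without bottom 2 (edgeR adjusted p = 0.0398) when 1 library was left out, and was lost without top 1 (0.167), top 2 (0.0981), top 3 (0.106), top 4 (0.138), bottom 1 (0.0705), bottom 3 (0.134) or bottom 4 (0.132).

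Lmo4 and Smad3 gave no call. Lmo4, a LIM-only protein that bridges transcription factors through Ldb1, stood at 5.32, 3.52, 8.04 and 9.21 CPM in top 1 to top 4, and at 3.28, 1.96, 6.74 and 10.1 CPM in bottom 1 to bottom 4. The populations overlapped almost fully, and in both the batch 2 libraries were above the batch 1 libraries. Its means were 6.52 ± 2.58 and 5.52 ± 3.66 CPM (SD, n = 4), and the log2 fold change was -0.39 (SE 0.76, edgeR adjusted p = 0.924). It is the member of the set whose top level was not below its bottom level in the mean.

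Smad3, which carries signals of the TGF-beta receptors to the nucleus, had few counts throughout, with 9 in top and 146 in bottom. Its levels were 0.144, 0, 0.124 and 1.11 CPM in top 1 to top 4, and 9.29, 0, 5.58 and 0.741 CPM in bottom 1 to bottom 4. Bottom 1 and bottom 3 were above every top library, whereas bottom 2 had 0 counts and bottom 4 lay below top 4. The means were 0.345 ± 0.515 and 3.90 ± 4.36 CPM (SD, n = 4). Without top 4 the top mean was 0.0892 CPM, and without bottom 1 the bottom mean was 2.11 CPM. In a fit without the count minimum its log2 fold change was 3.84 (edgeR adjusted p = 0.562).

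Igfbp4, a secreted protein that binds insulin-like growth factors and limits their access to the receptor, was detected in every library. It stood at 3.88, 11.9, 11.0 and 5.87 CPM in top 1 to top 4, and at 8.52, 37.0, 34.6 and 98.2 CPM in bottom 1 to bottom 4. Bottom 1 fell within the range of the top libraries, and the other 3 bottom libraries were above all of them. The means were 8.17 ± 3.91 and 44.6 ± 38.0 CPM (SD, n = 4), and without bottom 4 the bottom mean was 26.7 CPM. The log2 fold change of 2.25 (SE 0.74) did not pass (edgeR adjusted p = 0.299). The ratio of means was 2.88 in batch 1 and 7.86 in batch 2.

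**Figure D2:**
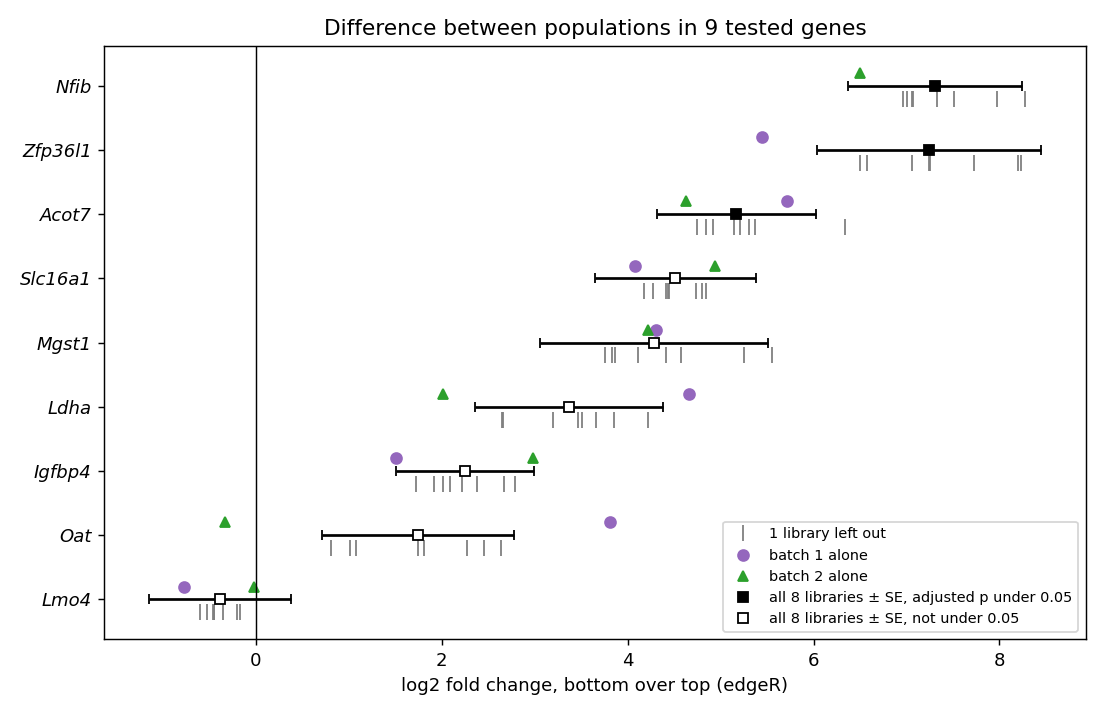
Log2 fold change of bottom over top from edgeR for the 9 tested genes, with SE bars, with each of the 8 libraries left out in turn (grey ticks) and within each batch (circles and triangles). Filled squares are the 3 genes with an adjusted p under 0.05. The values of batch 1 for Nfib and of batch 2 for Zfp36l1 are not drawn, because the top libraries of that batch held 0 counts. Oat is the gene whose 2 batches lie on opposite sides of 0.

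Whether the difference between populations itself differed between the batches was tested with an interaction term. In the edgeR quasi-likelihood test 0 of the 11721 genes were called, and 885 had an unadjusted p under 0.05. Of the 9 genes of the set, 2 were among these 885, Oat and Zfp36l1, each with an edgeR adjusted p of 0.499. The opposite directions of Oat in the 2 batches are therefore not a called difference.

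Libraries differed widely in transcripts of intestinal epithelium and of stroma, and the genes of the set were set beside both. The intestinal sum, over 30 markers such as Fabp1, Lgals4 and Vil1, was 3199, 261, 97.2 and 1320 CPM in top 1 to top 4, and 47740, 11725, 162 and 150 CPM in bottom 1 to bottom 4. It was high in the batch 1 bottom libraries and low in the batch 2 bottom libraries, which lay within the range of the top libraries. Of the 30 markers, 20 were tested and 0 rose or fell by edgeR. Of the 20, 3 had an unadjusted p under 0.05 and DESeq2 called 2, beside 10.3% and 5.01% of all tested genes. Muc2, Cdx1 and Guca2a were at 0 in all top libraries. The stromal sum, over 19 markers such as Col3a1, Dcn and Pdgfrb, was 1.58, 4.02, 0.618 and 16.4 CPM in top 1 to top 4, and 6.23, 357, 403 and 1584 CPM in bottom 1 to bottom 4. Bottom 1 lay among the top libraries in this sum, and the other 3 bottom libraries were far above them. Of the 19 stromal markers 6 were tested and 2 rose, Col3a1 and Dcn, beside 0.282% of all tested genes. These 2 had 1 and 2 counts in all top libraries and met the count minimum only through bottom libraries, so their calls are not used as support. Dcn lost its call without any 1 library except bottom 1, and Col3a1 without any except bottom 1 or bottom 3. Of the 19, 6 were at 0 in all top libraries (Col1a1, Col6a1, Col6a2, Thy1, Fbn1 and Postn). In bottom 1, 11 of the 19 were at 0, and in bottom 2 to bottom 4 it was 1, 1 and 0.

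Ldha, Mgst1 and Oat were highest where the intestinal sum was highest. In the batch 1 bottom libraries, Ldha amounted to 1.75% and 2.04% of the intestinal sum, close to its 0.962% to 3.18% in the top libraries. In bottom 3 and bottom 4, where the intestinal sum was no higher than in top libraries, Ldha amounted to 16.4% and 29.2% of it. Mgst1 amounted to 1.01% and 1.10% of the sum in bottom 1 and bottom 2, to 20.3% and 38.3% in bottom 3 and bottom 4, and to 0% to 0.931% in top libraries. For Oat the figures were 0.504% and 0.735% in bottom 1 and bottom 2, 6.62% and 15.3% in bottom 3 and bottom 4, and 0.504% to 29.9% in top. Within batch 2, where both bottom libraries had low intestinal sums, the bottom means were 4.01 times the top means for Ldha and 18.4 times for Mgst1. With the log2 intestinal sum as a covariate, an alternative chosen after the data were seen, Nfib (edgeR adjusted p = 0.00864) and Zfp36l1 (0.0296) kept their calls and Acot7 lost it (0.0639). The log2 fold change of Acot7 was 5.74 in that fit and 5.17 without the covariate. In that fit the log2 fold change was 2.68 for Ldha (edgeR adjusted p = 0.0738), 3.92 for Mgst1 (0.316) and 0.65 for Oat (0.930). Without the covariate the values were 3.37, 4.28 and 1.74, and none of the 3 genes was called in either fit. Among bottom libraries the intestinal sum was high only in bottom 1 and bottom 2, both of batch 1, so this fit cannot separate the 2. The part of intestinal transcripts in these levels was not tested.

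Igfbp4, Nfib, Zfp36l1 and Lmo4 were highest where the stromal sum was highest, in bottom 4, at 98.2, 132, 92.0 and 10.1 CPM. In bottom 1, with a stromal sum of 6.23 CPM, Igfbp4 was 8.52 CPM, inside the range of the top libraries. Nfib was 29.5 CPM in bottom 1, against at most 1.59 CPM in any top library. Zfp36l1, Acot7 and Slc16a1 in bottom 1 were also above all top libraries, at 65.2, 63.0 and 26.9 CPM. In top 4, with a stromal sum of 16.4 CPM, they stood at 0, 0.159 and 0.318 CPM. Both of these sums are low, with 11 of the 19 stromal markers at 0 in bottom 1 and 14 in top 4. With the log2 stromal sum as a covariate, also chosen after the data were seen, 0 of the 9 genes were called, with edgeR adjusted p = 0.119 for Nfib, 0.186 for Zfp36l1 and 0.210 for Acot7. The log2 fold changes in that fit were 7.67 for Nfib, 6.25 for Zfp36l1 and 5.55 for Acot7, and 0.16 for Igfbp4. The stromal sum separates 3 of the 4 bottom libraries from the top libraries, so the population and this sum vary together in these libraries. Endothelial markers moved alongside, with 0.124 to 9.21 CPM in top and 11.0, 25.1, 55.5 and 348 CPM in bottom 1 to bottom 4, and 6 of the 10 were at 0 in all top libraries. The part of stromal, endothelial, delta or PP cell transcripts in these results was not tested.

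**Figure D3:**
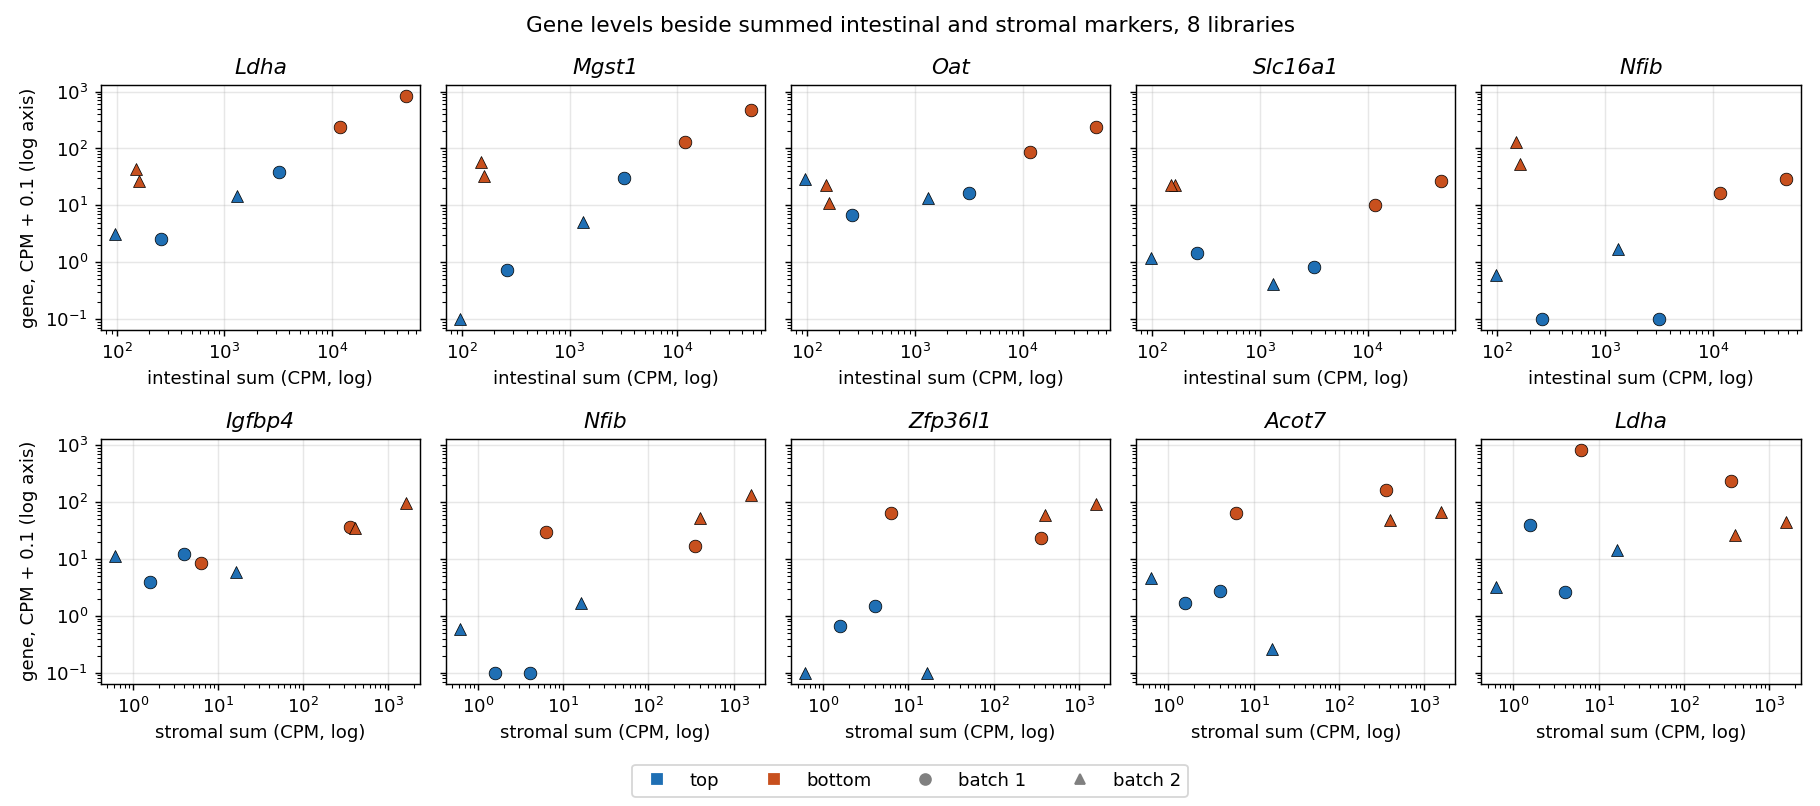
Level of a gene (CPM + 0.1, log axis) against the summed CPM of 30 intestinal markers (upper row) or 19 stromal markers (lower row, both log axes), 1 point per library, blue for top and orange for bottom, circles for batch 1 and triangles for batch 2. Ldha, Mgst1 and Oat are highest in the 2 libraries with the largest intestinal sums. Nfib, Zfp36l1 and Acot7 are above all top libraries in every bottom library, including bottom 1, whose stromal sum was 6.23 CPM.

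Among other genes of lactate and pyruvate handling 1 was called. Of 22 genes listed, 18 were tested, and 0 rose and 1 fell by edgeR, beside 0.444% of all tested genes called. Of the 18, 3 had an unadjusted p under 0.05 and DESeq2 called 2, beside 10.3% and 5.01% of all tested genes. The median log2 fold change of the 18 was 0.13. The gene that fell was Pcx, the pyruvate carboxylase that feeds pyruvate into anaplerosis in beta cells, with means of 39.6 CPM in top and 0.786 CPM in bottom, a log2 fold change of -5.78 with an SE of 0.94 (edgeR adjusted p = 0.0424). With 1 library left out this call was kept only without bottom 1 (0.0406), and the edgeR adjusted p was 0.135, 0.149, 0.0693 and 0.138 without top 1 to top 4 in turn and 0.109, 0.142 and 0.0558 without bottom 2 to bottom 4. Ldhb, the dehydrogenase subunit that favours lactate use, stood at 9.49, 11.4, 12.9 and 3.49 CPM in top 1 to top 4 and at 0.109, 7.01, 0.421 and 6.39 CPM in bottom 1 to bottom 4 (log2 fold change -1.40, edgeR adjusted p = 0.794). A related carrier, Slc16a7 (MCT2), was 0, 1.51, 0.618 and 0 CPM in top 1 to top 4 and 3.28, 54.3, 13.4 and 13.0 CPM in bottom 1 to bottom 4. It did not overlap between populations, and its log2 fold change of 5.25 (SE 1.47) did not pass (edgeR adjusted p = 0.214). Slc16a3 (MCT4) had 1 count in top and 33 in bottom and was not tested. Bsg, the chaperone that brings MCT1 to the membrane, was present in all libraries at 70.5 to 139 CPM in top and 124 to 369 CPM in bottom (log2 fold change 0.95, edgeR adjusted p = 0.337). The 10 genes of the NADH shuttles, which carry reducing equivalents into mitochondria in the absence of lactate production, had a median log2 fold change of 0.04, with 0 called by edgeR. Of these 10, 1 had an unadjusted p under 0.05 and DESeq2 called 1, beside 10.3% and 5.01% of all tested genes.

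Relatives of the 3 enzymes gave 1 call by edgeR, beside 0.444% of all tested genes. Of 12 other acyl-CoA thioesterases 7 were tested, and 0 were called by edgeR, at an unadjusted p under 0.05 or by DESeq2 (median log2 fold change 1.04). Of 12 genes of ornithine, arginine and proline metabolism 11 were tested, and Arg1, the arginase that makes ornithine from arginine, rose from 23.5 to 151 CPM in the mean, by 2.75 on the log2 scale (SE 0.34) with an edgeR adjusted p of 0.0139. Its call was lost without top 1 (0.0612), top 2 (0.0899), top 4 (0.0589) or bottom 4 (0.0720). Odc1, which turns ornithine into putrescine, had means of 243 CPM in top and 265 CPM in bottom (log2 fold change 0.33, edgeR adjusted p = 0.842). Aldh18a1, which makes the glutamate semialdehyde of proline synthesis, had means of 42.1 and 68.9 CPM (log2 fold change -0.17, edgeR adjusted p = 0.976), so the mean ratio and the fitted value differ in sign. Of 22 other glutathione transferases 18 were tested, with 0 called by edgeR (median log2 fold change 0.51). Of the 18, 4 had an unadjusted p under 0.05 and DESeq2 called 2, beside 10.3% and 5.01% of all tested genes. Mgst3 stood at 42.3, 17.7, 14.3 and 29.5 CPM in top 1 to top 4 and at 429, 136, 29.5 and 20.8 CPM in bottom 1 to bottom 4, again with high values in bottom 1 and bottom 2 (log2 fold change 1.72, edgeR adjusted p = 0.482). Mgst2, not tested, was 81.1 and 25.9 CPM in bottom 1 and bottom 2 and 0 CPM in bottom 3 and bottom 4, and 0 to 8.34 CPM in top.

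Relatives of Nfib and Zfp36l1 were detected in both populations, and none was called by edgeR. At an unadjusted p under 0.05 and by DESeq2, 0 of the 3 NFI factors and 1 of the 2 tested tristetraprolin genes passed. The shares of all tested genes were 10.3% and 5.01%. Nfia, Nfic and Nfix had means of 28.8, 12.3 and 5.44 CPM in top and 47.4, 12.0 and 3.34 CPM in bottom, with log2 fold changes of 0.71, 0.05 and -0.93 and edgeR adjusted p of 0.695, 0.987 and 0.893. Zfp36, the founding tristetraprolin gene and an immediate early gene, was 119, 91.9, 191 and 266 CPM in top 1 to top 4 and 367, 366, 444 and 341 CPM in bottom 1 to bottom 4. Its populations did not overlap, and its log2 fold change of 1.29 (SE 0.29) did not pass (edgeR adjusted p = 0.115). Zfp36l2 had means of 49.7 and 90.6 CPM (log2 fold change 0.87, edgeR adjusted p = 0.639).

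Among LIM-only factors and their partners 4 of 8 were tested and Lmo3 was called, beside 0.444% of all tested genes. Lmo3 met the count minimum only through its bottom libraries. Lmo3 had 0 counts in all top libraries and 49.2, 29.6, 4.32 and 7.60 CPM in bottom 1 to bottom 4, 890 counts in all (edgeR adjusted p = 0.0462). That is at least 217-fold higher against a floor of 3 counts over the population. Its call was lost with any 1 library left out (edgeR adjusted p = 0.129, 0.146, 0.0841 and 0.0998 without top 1 to top 4 in turn, and 0.0893, 0.104, 0.134 and 0.139 without bottom 1 to bottom 4) and with no batch term (0.0640). Lmo1 (6 counts in top, 64 in bottom) was not tested, and Lmo2, with means of 5.58 and 2.67 CPM, had a log2 fold change of -1.37 (edgeR adjusted p = 0.868). The shared partner Ldb1 had means of 10.7 and 18.0 CPM (log2 fold change 0.72, edgeR adjusted p = 0.822). The median of the list was 0.74, and it was the same with Lmo3 at its bound.

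In TGF-beta and SMAD signalling 20 of 27 genes were tested, with a median log2 fold change of 0.32. By edgeR 0 were called. Of the 20, 4 had an unadjusted p under 0.05 and DESeq2 called 3, beside 10.3% and 5.01% of all tested genes. Smad2, the other receptor-activated SMAD of this branch, had means of 32.0 and 39.5 CPM (log2 fold change 0.38, edgeR adjusted p = 0.926). Smad4, the common partner, had means of 57.1 and 50.6 CPM (log2 fold change -0.37, edgeR adjusted p = 0.883). The type I receptor Tgfbr1 was 45.2, 68.6, 66.8 and 80.3 CPM in top 1 to top 4 and 5.79, 9.44, 37.4 and 32.3 CPM in bottom 1 to bottom 4. It lay lower in every bottom library than in any top library, and its log2 fold change of -1.98 (SE 0.50) did not pass (edgeR adjusted p = 0.164). The type II receptor Tgfbr2, not tested, was at 0 in all top libraries and in bottom 1, and at 1.59, 2.74 and 35.1 CPM in bottom 2 to bottom 4, the order of the stromal sum.

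Of 15 genes of the insulin-like growth factor system 7 were tested, with a median log2 fold change of -0.13. By edgeR 0 were called. Of the 7, 3 had an unadjusted p under 0.05 and DESeq2 called 2, beside 10.3% and 5.01% of all tested genes. Igfbp7 had 31.8, 43.2, 36.5 and 56.0 CPM in top 1 to top 4 and 43.7, 115, 105 and 268 CPM in bottom 1 to bottom 4 (log2 fold change 1.54, edgeR adjusted p = 0.253). Igfbp5 had 0.144, 0.251, 8.90 and 0 CPM in top and 0.328, 16.5, 34.9 and 116 CPM in bottom (log2 fold change 4.57, edgeR adjusted p = 0.291). Both resemble Igfbp4 in having bottom 1 among the top libraries and bottom 4 highest. Igfbp3, not tested, had 0 counts in top and 381 in bottom, all of them in bottom 3 and bottom 4. Igfbp2 had 0 counts in top and 12 in bottom, and Igfbp1 and Igfbp6 had 0 counts in all 8 libraries.

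A further 13 genes described as disallowed in beta cells or islets were looked at beside the set. Of these 7 were tested, with 0 called by edgeR, 5 at an unadjusted p under 0.05 and 5 called by DESeq2, beside 10.3% and 5.01% of all tested genes. The log2 fold change was positive for all 7, and the median was 3.53. Bottom libraries were above top libraries without overlap for 3 of the 7 (Cd44, Tgm2 and Fcgrt), beside 3.31% of all tested genes. Of these 7, Cd44 alone met the count minimum in every top library, and Tgm2 met it in none. The others were tested at least partly through their bottom libraries. No count or median over the 7 is therefore used as support for a property of these genes. Cd44, a hyaluronan receptor, was 9.64, 40.9, 82.9 and 78.9 CPM in top 1 to top 4 and 153, 124, 394 and 285 CPM in bottom 1 to bottom 4, with a log2 fold change of 2.26 and an SE of 0.43 (edgeR adjusted p = 0.0680). Catalase (Cat), which breaks down hydrogen peroxide, was 41.0, 20.7, 0 and 0.635 CPM in top and 374, 159, 15.5 and 29.1 CPM in bottom (log2 fold change 4.27, edgeR adjusted p = 0.0747). Bottom 1 and bottom 2 were the high libraries for Cat, as for Ldha and Mgst1. The 6 that were not tested had 0 to 16 counts in top and 6 to 934 in bottom, with Cxcl12 at 0 and 934 and the stromal gene Pdgfra at 4 and 542.

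**Figure D4:**
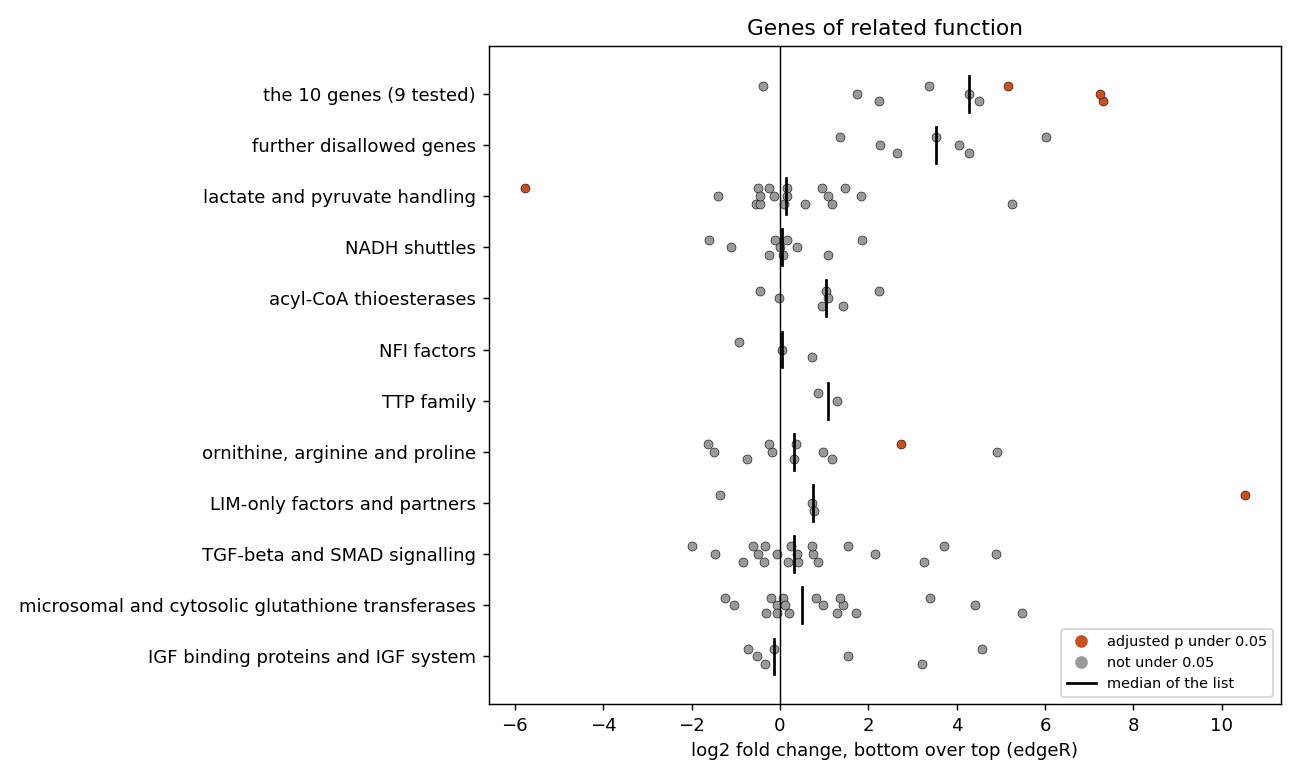
Log2 fold change of bottom over top from edgeR for the tested genes of the set and of 11 related lists, 1 point per gene, with the median of each list as a bar. Orange points have an adjusted p under 0.05. The medians of the set and of the further disallowed genes are 4.28 and 3.53, and those of the other 10 lists lie between -0.13 and 1.08. Of the 9 tested genes of the set 5 met the count minimum only through bottom libraries, which raises its median. Of the tested further disallowed genes, Cd44 alone met it in every top library, so the medians are not compared. The fitted value of Lmo3, at the far right, belongs to a gene with 0 counts in top and is not a bound.

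The tested genes whose profile over the 8 libraries was most like that of each gene in the set were found by Pearson's r of log2(CPM + 0.5). The r values describe 8 libraries that fall into 2 populations and 2 batches, and carry no test. For Slc16a1 the 3 closest were Zfp36l1 (r = 0.98), AW551984 and Tenm4 (both 0.98), so 2 genes of the set were each other's closest match. Acot7 was closest to Sst, the hormone of delta cells (r = 0.98), to AW551984 and to Chgb (both 0.97). Nfib was closest to Tspan12, Klhl1 and Klf6 (0.97 each), and Zfp36l1 after Slc16a1 to Adamts1 (0.98) and Pcolce (0.97).

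The gene most like Ldha was Crip1 (r = 0.99). Mgst1 was closest to Slc25a15 (0.99), Gprc5a and Lrp1 (both 0.97), and Oat to Fbxl5, Efhd2 and Chchd3 (0.97 each). Igfbp4 was closest to Tagln, a smooth muscle actin-binding protein (0.97), to Dlc1 and to Rps19 (both 0.96). Lmo4 was closest to Mycbpap (0.96), 5031426D15Rik and Usp6nl (both 0.95), and Smad3, which was itself not tested, to Ptp4a1, Rrp9 (both 0.96) and Nme7 (0.95).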

How the data were processed

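RNA of sorted NOD beta cells was measured in 8 libraries made with the SMARTer Ultra Low RNA kit and Nextera XT, per the labels' protocols. The authors deposited RSEM expected counts, estimates of reads per gene in which reads matching several genes are divided among them. The submitters' processing notes name RSEM, edgeR and build mm9. Versions, aligner and annotation are not given in the sources used here. Of the deposited expected counts 34.8% were not whole, and all were rounded. The per-library tables and the series table differed by 0, and no column of another sample was present. Reads of closely related genes, or of antisense genes, could not be separated, since no source states that strand was used.

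Genes were filtered with filterByExpr by population, which required about 1.11 CPM in 4 or more libraries, scaled by TMM, and tested with edgeR 4.0.16 (limma 3.58.1, DESeq2 1.42.0 as an alternative, R 4.3.3), with batch and population as terms. 11721 of 23366 genes were tested. The procedure was tested on simulated data with less spread between libraries than in these data and with no batch effect. That test therefore does not measure how reliable the calls are here. The common biological coefficient of variation was 0.806. The members, the related lists and the marker lists were chosen with earlier results of these data known. Named are all 10 genes, list genes past the threshold, fixed paralogs and partners, and the 3 genes most alike each member, some of which are not reported here. Of the further disallowed genes, which that rule does not cover, those named were chosen after their values were seen. The endothelial, delta, PP and other marker lists (duct, acinar, leukocyte, Schwann, alpha and beta) were summed in the same way. Top against bottom, duct markers summed to 164 to 403 and 386 to 1003 CPM, acinar markers to 39.2 to 344 and 325 to 2130, leukocyte markers to 5.78 to 14.4 and 0.874 to 4.74, Schwann markers to 45.1 to 79.4 and 10.7 to 83.6, and alpha markers to 65123 to 138111 and 28988 to 141968. Promoters came from a RefSeq table of GRCm38.p6, matched by symbol (9 of 10). No protein table was used here, and gene coordinates in mm9 were not used here.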

Additional observations from a re-analysis of the deposited data

Results flagged for a closer look

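In 24 groups of 4 libraries, counting the 10 genes, the marker sums of intestine and stroma and each population, 3 had 1 library far from the other 3 (its gap to the nearest library, over the range of the 4, was above Dixon's 95% critical value, which chance alone passes in about 1 of 20 groups). Acot7 was 164 CPM in bottom 2, against 48.7 to 66.4 CPM in the other bottom libraries. Bottom 2 was also the library with the largest delta, PP, alpha and acinar sums (71033, 78759, 141968 and 2130 CPM), and a link between these levels was not tested. Smad3 was 1.11 CPM in top 4, against 0 to 0.144 CPM in the other top libraries. Mgst1 was 29.8 CPM in top 1, the top library with the largest intestinal sum (3199 CPM), against 0 to 4.92 CPM in the other top libraries.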

How the results depend on the processing

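Of 189 fold changes of the 9 tested genes over 21 alternatives, 146 kept direction and side of the threshold, 33 lost the call, 8 gained one and 2 changed sign. Both sign changes were of Oat, to -0.33 in batch 2 alone and -0.34 without bottom 1 and bottom 2. The count of called genes in the set was 3. It was 6 with DESeq2 (adding Ldha, Slc16a1 and Igfbp4), 6 with no low-count filter (adding Ldha, Slc16a1 and Mgst1), 4 with limma-trend and 4 with library totals (both adding Slc16a1), 3 with upper quartile scaling or without hormone transcripts, 2 with no batch term, and 0 in batch 1 alone or batch 2 alone, where 4 libraries remain. Leaving out 1 library gave 0 to 2. Over all genes the count was 52, and it became 587 with DESeq2, 204 with no filter, 137 with limma-trend, 32 with no batch term, 2 in batch 1 alone, 2 in batch 2 alone and 8 to 60 with 1 library left out. Library totals moved the median of all genes to 0.34 and the split from 33 higher and 19 lower to 55 and 16. Alternatives chosen after the data were seen gave 1 member without bottom 1 and bottom 2 (Zfp36l1), 2 with the intestinal sum as a covariate, and 0 with the stromal sum, which left 8 genes in all. A replicate block of batch and title number gave 0 members and 0 genes. Only libraries numbered 1 occur in both populations of a batch, so that fit compares the populations through 4 libraries. The causes of these differences were not tested. Top levels of Smad3, Nfib and Zfp36l1 rest on 9, 14 and 15 counts, which limits their precision.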
